A study of Mus musculus with 6 samples.

Results

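The cornified envelope genes of the epidermal differentiation complex were followed in skin from the dorsal neck of YAP2-5SA-∆C transgenic mice (TG) and of wild type mice (WT). Members were the genes of the count table whose symbol in GENCODE M21 on GRCm38 starts with *Sprr* or *Lce*, or is *Lor*, *Flg2*, *Ivl*, *Hrnr*, *Rptn*, *Crnn*, *Kprp*, *Krtdap*, *Sbsn*, *Calm4*, *Crct1* or *Pglyrp3*. This gave 48 of 26579 genes, with 16 *Sprr* genes (12 of them *Sprr2*), 20 *Lce* genes (13 *Lce1*, 6 *Lce3* and *Lce6a*) and 12 other envelope genes. *Flg* and *Lce1d* were not analysed here. Of the members, 45 lay on chromosome 3 between 92014583 and 93399442, a span of 1385 kb. *Sbsn* and *Krtdap* lie on chromosome 7, and *Calm4* lies on chromosome 13.

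RNA-Seq libraries came from 3 female wild type mice and 3 female YAP2-5SA-∆C littermates, all 33 days old, with the transgenic mice at the early onset of their visible phenotype. The transgene codes for a mildly active mutant of YAP, the effector of the Hippo pathway, and is expressed in the Keratin5/14-positive keratinocytes of the basal layer. No other allele or agent is given for either group, and reads of the transgene itself were not analysed here. Each library was made from a punch biopsy of whole skin, so that hair follicles, dermis, fat and muscle were sampled along with the epidermis. Fewer cells of a type and less RNA per cell cannot be told apart in such bulk samples.

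The cornified envelope is the cross-linked protein shell that replaces the plasma membrane of keratinocytes as they reach the skin surface. Involucrin (*Ivl*) is among its first layers, loricrin (*Lor*) is its main bulk protein, the small proline-rich proteins (*Sprr* genes) act as cross-bridges, and the late cornified envelope proteins (*Lce* genes) are added in the uppermost living layers. Transglutaminases join them. The fused S100 proteins, to which profilaggrin, filaggrin 2, hornerin, repetin and cornulin belong, fill and bind the keratin network below. *Lce1* genes are known as genes of normal skin, whereas *Lce3*, *Sprr1b* and *Sprr2* genes are known to be expressed after barrier injury and in hyperplastic epidermis.

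*Sprr1b* and 5 of the 6 *Lce3* genes were higher in TG skin, whereas the *Lce1* genes, *Lor* and *Ivl* did not pass the test. In edgeR's quasi-likelihood test with Benjamini-Hochberg adjustment over 15102 tested genes (FDR), 9 members were higher at an FDR below 0.05. They were *Lce3b*, *Lce3c*, *Lce3d*, *Lce3e*, *Lce3f*, *Sprr1b*, *Sprr2g*, *Calm4* and *Pglyrp3*. No member was lower in this test. At an unadjusted p below 0.05, 19 of the 41 tested members were higher, against 13.3% of all tested genes, and 3 (*Crnn*, *Sprr1a* and *Sprr4*) were lower, a share below the 13% of all tested genes. No gene of the table was called when WT replicate 2, WT replicate 3 or TG replicate 3 was left out, and the 9 calls depend on these libraries. Among all tested genes 1.44% were called higher and 0.464% lower. The members tested were 41, and 6 of these (*Lce3b*, *Lce3e*, *Lce3f*, *Sprr2a2*, *Sprr2e* and *Sprr2g*) reached the required level of 1 CPM in TG libraries only. Among all tested genes 62 did so. CPM are read counts scaled to a common library size, for this filter without and elsewhere with TMM factors. The filter fixed the direction of these 6 members, and all 6 are among the 19. *Lce3b*, *Lce3e*, *Lce3f* and *Sprr2g* are also among the 9 calls, and the member median includes all 6. The median log2 fold change of TG over WT was 0.42 over the 41 tested members and -0.01 over all tested genes. Without a filter, 22 of the 48 members had every TG library above every WT library and 2 (*Crnn* and *Sprr4*) had every one below. Such separation was found upward in 11.4% and downward in 11.8% of all 26579 genes (15.5% and 18.2% of the tested genes). The 22 include *Sprr3* and *Sprr2j-ps*, which had few counts, and *Sprr2a1* and *Sprr2a2*, which overlap on the same strand.

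The libraries held 11225705 to 19505036 counts on genes. Members took 0.685% to 0.811% of the counts in WT and 0.799% to 1.27% in TG skin, where replicate 2 had the highest share. That library stood apart in its hair genes. The summed level of 8 hair shaft keratins was 2996 to 5638 CPM in WT and 1342, 124 and 1666 CPM in TG replicates 1, 2 and 3. For 7 inner root sheath and medulla genes it was 12575 to 15254 CPM against 6731, 1419 and 8507 CPM. Members were therefore also fitted without TG replicate 2. Positive log2 fold changes were found in 37 of the 41 tested members, and in 30 of them without that library, where the median was 0.17. In that fit 13 members were higher and 1, *Crnn*, was lower, against 2.83% and 2.74% of all tested genes. Of all tested genes 26.1% had their highest level in TG replicate 2 and 12.3% in replicate 3, whereas the members were divided by subfamily, as described next.

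**Figure D1:**
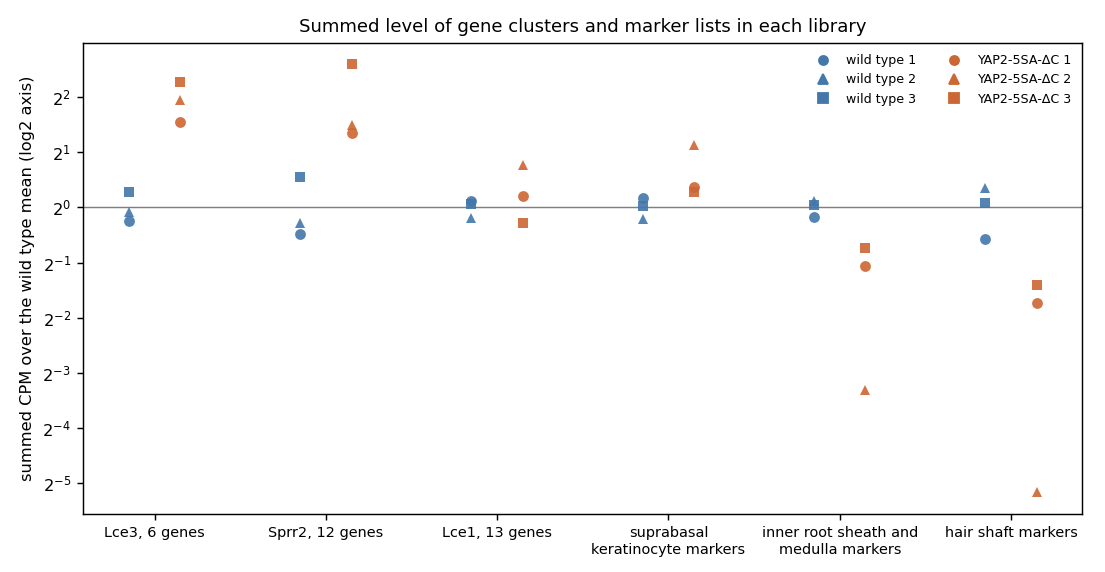
Summed CPM of gene groups and marker lists in each library, divided by the WT mean (log2 axis, 3 libraries per genotype, 1 point per library). *Lce3* and *Sprr2* sums lie above all WT libraries in each TG library and highest in replicate 3, *Lce1* overlaps WT, and replicate 2 is farthest below WT for the hair lists.

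The *Lce3* genes form a block on chromosome 3 from 92925287 to 92993426. In all, 5 of its 6 genes were called higher, with log2 fold changes from 1.24 to 4.01. They code for late envelope proteins that are low in normal skin. The summed level of the 6 genes was 6.87, 7.64 and 9.80 CPM in WT and 23.7, 31.1 and 39.0 CPM in TG skin. The means were 8.10 ± 1.52 and 31.3 ± 7.63 CPM (SD, n = 3 each), a 3.86-fold difference that was 3.87-fold without TG replicate 2.

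*Lce3e* (ENSMUSG00000074433) had the lowest FDR of the members. Its level was 0.550, 0.785 and 0.571 CPM in WT and 3.95, 4.12 and 4.81 CPM in TG skin, with a log2 fold change of 2.72 ± 0.21 (SE) and an FDR of 0.0101. The 3 TG libraries lay close together and far above WT. *Lce3d* had 1.04, 1.26 and 1.71 CPM against 5.51, 8.18 and 11.5 CPM (log2 fold change 2.68 ± 0.32, FDR 0.0300). *Lce3f* had 0.330, 0.366 and 0.381 CPM against 1.61, 2.12 and 3.18 CPM (2.66 ± 0.35, FDR 0.0341). In both genes the level was highest in TG replicate 3.

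*Lce3c* was the only *Lce3* gene with over 60 counts in each library. It had 4.78, 4.92 and 6.09 CPM in WT against 9.90, 13.5 and 13.7 CPM, and its log2 fold change of 1.24 ± 0.17 (FDR 0.0347) was the smallest of the called *Lce3* genes. *Lce3b* was nearly silent in WT, with 1, 3 and 5 counts against 38, 48 and 76 counts (log2 fold change 4.01 ± 0.58, FDR 0.0398). Without WT replicate 3 its log2 fold change was 4.83 and it was not called (FDR 0.115). *Lce3a*, at the edge of the block on the other strand, stayed below the filter. It had 2, 3 and 6 counts in WT and 12, 6 and 17 counts in TG skin, and its libraries overlapped.

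Counting limits these genes in another way. Of the 75-base words of *Lce3e* and *Lce3f* transcripts, 41.1% and 45.6% also occur in another gene, and for *Lce3d* and *Lce3c* the shares were 38.6% and 28.0%. *Lce3b* shared 6.15%. Only uniquely mapped reads were counted, so the levels of the first 4 genes and of the sum may be too low, and *Lce3b* depends on this less.

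**Figure D2:**
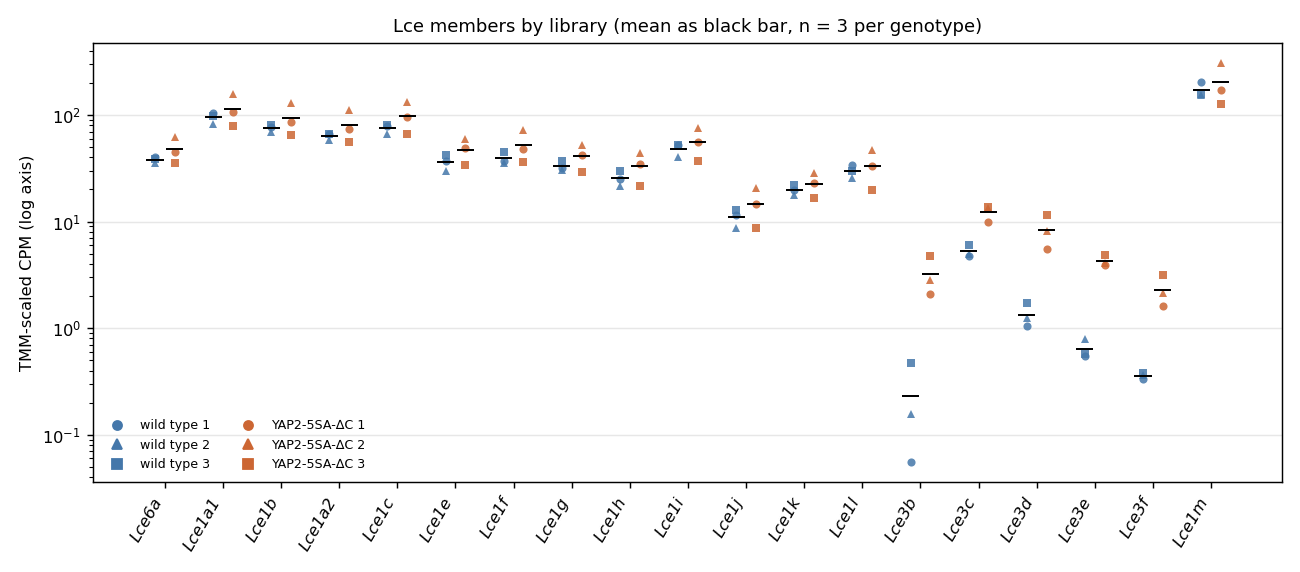
Level of the 19 tested *Lce* genes in each library (TMM-scaled CPM on a log axis, genes in order along chromosome 3, black bars for means of 3 libraries). The *Lce3b* to *Lce3f* points of the genotypes do not overlap, while *Lce6a* and the 13 *Lce1* genes overlap and have their highest point in TG replicate 2.

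The *Lce1* genes, the late envelope genes of normal skin, gave no call. Their log2 fold changes ran from 0.17 to 0.42 with FDRs from 0.284 to 0.744, and in each of the 13 genes the genotypes overlapped. Their sum was 782, 638 and 755 CPM in WT and 834, 1240 and 595 CPM in TG skin, a 1.23-fold difference that was 0.986-fold without replicate 2. All 13 *Lce1* genes were highest in TG replicate 2, and 9 of them were lowest in TG replicate 3. The library with the highest *Lce3* sum thus had the lowest *Lce1* sum.

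Per kilobase of exons (RPKM), the WT level of *Lce1* genes ran from 15.8 RPKM in *Lce1j* to 182 RPKM in *Lce1m*. *Lce1m* had 206, 153 and 158 CPM in WT and 171, 310 and 126 CPM in TG skin (log2 fold change 0.23 ± 0.31). *Lce1a1* had 95.1 ± 12.3 CPM in WT and 114 ± 40.5 CPM in TG skin (SD, n = 3 each). *Lce1c* had 75.2 ± 8.23 against 98.8 ± 33.3 CPM and *Lce1b* 75.4 ± 5.57 against 93.3 ± 32.3 CPM. Without TG replicate 2 the log2 fold changes of the 13 genes lay between -0.20 and 0.21, and 4 of them were negative. *Lce6a* went the same way as the *Lce1* genes, with 38.2 ± 2.41 against 47.6 ± 13.2 CPM (FDR 0.316).

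Relative to the *Lce1* genes, the *Lce3* share differed between genotypes. There were 0.879, 1.20 and 1.30 *Lce3* counts per 100 *Lce1* counts in the WT libraries, and 2.85, 2.51 and 6.56 in TG libraries. With 3 mice against 3, a two-sided exact permutation test cannot give a p below 0.1. This ratio is taken within a library and does not depend on scaling.

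The promoters of *Lce3* and *Lce1* genes shared a word near the start, TAAAAG, which was chosen after the sequences were seen. The windows from -45 to -16 of *Lce3* genes and of the 4 *Lce1* genes with the highest mean CPM are shown because the word recurred in both subfamilies. Its part in their expression was not tested. Sequences are RefSeq promoters on GRCm38.p6, 5′ to 3′, with positions counted from the first transcribed base and the word in capitals.
Lce3a: aataaaaaggcccttactctggattcctca
Lce3b: tcagcaactgcacaggaTAAAAGcactcct
Lce3c: tcacacacctgtcaaggaTAAAAGagctgc
Lce3d: acacatctaccaaggaTAAAAGggctgctg
Lce3e: tcacacacctgccaaggaTAAAAGggctgc
Lce3f: tcacacacctgacaaggaTAAAAGggctgc
Lce1a1: cagagcccagagtcagttTAAAAGggctga
Lce1b: agagcccaggatcagaataaaaaggctgag
Lce1c: agagcccaggatcagaaTAAAAGgacctat
Lce1m: ggtcagagcagaactgtaTAAAAGgcaggc
The *Lce3a* window is chr3:92926246-92926275 on the minus strand, and those of *Lce3b* to *Lce3f* run from chr3:92932934-92932963 to chr3:92992172-92992201 on the plus strand. In this window TAAAAG stood on the coding strand in 5 of 6 *Lce3*, 10 of 12 *Lce1* and 0 of 9 *Sprr2* promoters, and in 1.46% of all promoters. Median identity between promoters was 59.5% over 15 pairs of *Lce3* genes, 65.0% over 66 pairs of *Lce1* genes and 52.9% over 72 pairs of an *Lce3* with an *Lce1* gene.

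Among *Sprr* genes, *Sprr1b* was called with the largest counts. It codes for a small proline-rich cross-bridging protein (ENSMUSG00000048455) and lies at 92436809 to 92438789 on chromosome 3. *Sprr1b* had 20.2, 32.4 and 30.9 CPM in WT and 94.1, 104 and 114 CPM in TG skin. The means of 27.8 ± 6.67 and 104 ± 9.86 CPM (SD, n = 3 each) gave a log2 fold change of 1.90 ± 0.18 and an FDR of 0.0194. The lowest TG library stood far above the highest WT library, and no 75-base word of *Sprr1b* occurs in another gene.

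*Sprr1a*, the other *Sprr1* gene, had lower values in TG skin but did not pass the test. It had 396, 548 and 592 CPM in WT and 339, 183 and 418 CPM in TG skin, with a log2 fold change of -0.71 ± 0.30 and an FDR of 0.187. The groups overlapped, and the lowest value was that of TG replicate 2, without which the log2 fold change was -0.42. The ratio of *Sprr1b* to *Sprr1a* counts was 0.0509, 0.0591 and 0.0523 in WT and 0.278, 0.568 and 0.272 in TG skin. The genotypes did not overlap in this ratio, and it was highest in TG replicate 2. *Sprr4* had 34.2 ± 10.4 CPM in WT against 17.3 ± 7.29 CPM (SD, n = 3 each), with every TG library below every WT library (log2 fold change -0.99 ± 0.34, FDR 0.128). Its FDR in the likelihood-ratio test was 0.0114.

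The 12 *Sprr2* genes, which lie between 92215799 and 92433925, had low levels in WT. Their sum was 9.07, 10.4 and 18.6 CPM in WT and 32.4, 35.8 and 76.6 CPM in TG skin. The means were 12.7 ± 5.14 and 48.3 ± 24.6 CPM (SD, n = 3 each), a 3.81-fold difference. TG replicate 3 held more than the other two together. In 9 of the 12 genes every TG library was above every WT library, as in 11.4% of all 26579 genes, and *Sprr2b*, *Sprr2f* and *Sprr2k* overlapped. The 9 include *Sprr2j-ps*, which had few counts, and *Sprr2a1* and *Sprr2a2*, which are hard to tell apart.

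In the quasi-likelihood test *Sprr2g* was called of the 7 tested *Sprr2* genes, whereas the likelihood-ratio test called 7, DESeq2 5 and voom 0. Over all tested genes 1.44% were higher in the quasi-likelihood test, 5.52% in the likelihood-ratio test and 6.35% in DESeq2. *Sprr2g* had 0.495, 0.314 and 0.761 CPM in WT and 3.73, 3.53 and 8.11 CPM in TG skin (log2 fold change 3.36 ± 0.47, FDR 0.0377), from 6 to 9 counts per WT library. *Sprr2a3*, the *Sprr2* gene with the highest mean CPM, had 2.31, 3.14 and 4.38 CPM against 8.51, 10.9 and 30.5 CPM (2.37 ± 0.52, FDR 0.0612). Without TG replicate 3 its log2 fold change was 1.59. *Sprr2h* was near the threshold, with 3.08, 4.66 and 4.57 CPM against 8.12, 8.06 and 11.5 CPM (1.18 ± 0.22, FDR 0.0504). The log2 fold changes of the 7 genes ran from 1.18 to 3.36. *Sprr2a3*, *Sprr2e* and *Sprr2h* were called once TG replicate 2 was left out, at FDRs of 0.0373, 0.0352 and 0.0291.

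The untested *Sprr* genes had few counts. *Sprr2b* had 2, 5 and 8 counts in WT and 5, 3 and 5 in TG skin, and *Sprr2k* had none in WT and 5, 0 and 2 in TG skin. *Sprr2f* had 2, 1 and 4 counts in WT and 7, 6 and 73 in TG skin, so that 1 library held nearly all of them. *Sprr2j-ps*, a pseudogene, had 4 counts in WT replicate 3, none in the other two, and 12, 8 and 16 counts in TG skin. *Sprr3*, a gene of oral and oesophageal epithelium, had no count in WT and 4, 2 and 1 counts in TG skin. *Sprr2a1* had 4, 8 and 3 against 17, 28 and 18 counts, but 94.3% of its 75-base words also occur in another gene, chiefly *Sprr2a2*, which it overlaps on the same strand. *Sprr2a2* shares 94.7% and *Sprr2a3* 47.5%, and these 3 genes are therefore uncertain one by one.

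The 30 bases (RefSeq, GRCm38.p6) from -205 to -176 before the start of the *Sprr2* genes are shown because an AP-1 match recurred there. AP-1, the dimer of Fos and Jun proteins, is a known activator of envelope genes. A match to TGAGTCA or TGACTCA, which are each other on opposite strands, is in capitals.
Sprr2b: aaaggactctTGAGTCAcaagactcaacct
Sprr2d: ttgagtgctcacTGAGTCAcaggtctcaac
Sprr2e: gtgagtgctcacTGAGTCAcaggtctcaac
Sprr2f: ctgaatatTGAGTCAcagtgctcaacaatg
Sprr2h: tggtctcTGAGTCActgcactttacccagt
Sprr2i: agaagggctcacTGAGTCAcaggactgaac
Sprr2k: aatgtcctcTGAGTCActgtactTGACTCA
These windows lie on the plus strand of chromosome 3, from chr3:92316500-92316529 for *Sprr2b* to chr3:92432377-92432406 for *Sprr2k*. The match was held by 7 of the 9 *Sprr2* genes with a promoter in the table, and it began between -198 and -193 in each. It was present in 5.2% of the 32851 promoters of the same 300 bases. The exceptions were *Sprr2a1* and *Sprr2a3*, whose RefSeq starts lie 36 and 113 bases from the annotated ones (85 bases in *Sprr2b*). Their 300 bases may therefore not cover the stretch that matched in the others, and this was not tested. *Sprr2g*, the only called *Sprr2* gene, had no promoter to search for a match. None of the 12 *Lce1* and none of the 6 *Lce3* promoters held one. A TATAAA followed at -29 in the same 7 genes, and 2.14% of all promoters held one on the coding strand between -45 and -16 (8.32% anywhere in the 300 bases).

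The other *Sprr* genes did not share this layout. *Sprr1a* held 2 AP-1 matches, of which the first is shown with those of *Lor*, *Ivl* and *Krtdap*. *Sbsn* also held a match, at -6, which is not shown. *Sprr1b*, on the same strand as *Sprr1a*, held none. It is shown instead with a match to GGAATG or CATTCC, the core motif of the TEAD factors that YAP binds, and with its TATAAA, both in capitals.
Sprr1a: aaagcTGAGTCAgagggtgaactaggggag
Lor: ctgatcaatagaTGAGTCAgagcaggacaa
Ivl: tctaagttatcagaTGACTCAgaaaggaag
Krtdap: acatgatccggggaTGAGTCActagggtgg
Sprr1b: aggtctCATTCCttcTATAAAaagccagtg
The *Sprr1a* window is chr3:92486003-92486032 and the *Sprr1b* window chr3:92438795-92438824. Over 300 bases the *Sprr1a* and *Sprr1b* promoters were 56.3% identical in a global alignment. A TEAD match was found in 9 of the 41 members with a promoter, against 14.7% of all promoters, and an AP-1 match in 12 of 41. By subfamily, the TEAD match stood in 0 of 6 *Lce3*, 4 of 12 *Lce1* and 1 of 9 *Sprr2* promoters, and in those of *Sprr1b*, *Sprr3*, *Lce6a* and *Calm4*, so that called and uncalled members both held it. A match of letters is a description and does not show binding.

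**Figure D3:**
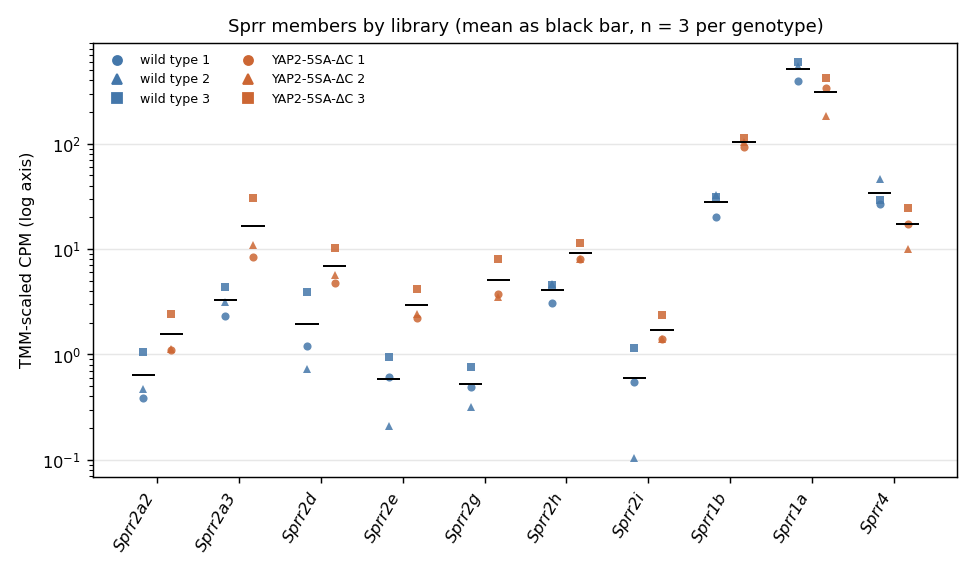
Level of the 10 tested *Sprr* genes in each library (TMM-scaled CPM on a log axis, genes in order along chromosome 3, black bars for means of 3 libraries). The 7 *Sprr2* genes and *Sprr1b* have all TG points above the WT points, with *Sprr2* highest in replicate 3, whereas *Sprr1a* overlaps and *Sprr4* has all TG points below.

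*Lor*, *Ivl*, *Kprp* and *Crct1* showed no difference that passed the test. *Lor*, the loricrin gene, had 190, 121 and 198 CPM in WT and 207, 347 and 125 CPM in TG skin (log2 fold change 0.42 ± 0.36, FDR 0.499). *Ivl*, the involucrin gene, had 154, 196 and 206 CPM against 179, 229 and 181 CPM (0.08 ± 0.14, FDR 0.732). In both genes the libraries overlapped. *Kprp*, for a keratinocyte proline-rich protein, had 219 ± 31.2 against 255 ± 103 CPM (FDR 0.658), and *Crct1* had 179 ± 14.7 against 162 ± 7.40 CPM (log2 fold change -0.14 ± 0.08, FDR 0.292).

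The fused S100 genes had estimates in both directions, and none of them passed the quasi-likelihood test. *Rptn*, the repetin gene, had 64.4, 108 and 130 CPM in WT and 196, 174 and 178 CPM in TG skin (log2 fold change 0.86 ± 0.23, FDR 0.0799). *Hrnr*, the hornerin gene, had 1092, 1012 and 1084 CPM against 1503, 2226 and 1169 CPM (0.62 ± 0.22, FDR 0.136). Neither passed the quasi-likelihood test, although the groups did not overlap in either gene. *Flg2*, for filaggrin 2, had the most counts of any member, with 2402 ± 308 against 3192 ± 952 CPM (0.41 ± 0.22, FDR 0.282), and its libraries overlapped. *Hrnr* and *Rptn* overlap other annotated genes, as do *Sbsn* and the called members *Calm4* and *Pglyrp3*, and all but *Hrnr* overlap one on the same strand. The counts of these 5 genes are uncertain to that extent, and the strand setting of the counting is not given in the sources used here.

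*Crnn* (ENSMUSG00000078657), the cornulin gene, took the other direction. It lies at 93144787 to 93149819 and had 223, 308 and 328 CPM in WT and 133, 25.2 and 153 CPM in TG skin. Each TG library lay below each WT library, and replicate 2 lay far below the other two. The log2 fold change of -1.46 ± 0.58 had an FDR of 0.165. Without TG replicate 2 it was -0.99 ± 0.17 with an FDR of 0.0248, and this was the only one of the 6 fits without 1 library in which it was called. Per count of *Rptn*, another fused S100 gene, *Crnn* had 3.46, 2.84 and 2.52 counts in WT and 0.680, 0.145 and 0.858 in TG skin. *Crnn* was lowest in the library in which the hair lists were lowest, and their part in the result was not tested.

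Of the remaining genes, *Calm4* and *Pglyrp3* were called. *Calm4*, for a calmodulin-like protein of differentiated keratinocytes, had 509, 495 and 488 CPM in WT and 773, 1060 and 778 CPM in TG skin (log2 fold change 0.81 ± 0.13, FDR 0.0428). The WT values were tightly grouped and lay well below each TG library. *Pglyrp3*, for a peptidoglycan recognition protein that acts against bacteria, had 4.45, 3.98 and 5.04 CPM against 7.51, 10.9 and 11.6 CPM (1.16 ± 0.19, FDR 0.0437). It stands at the other end of the complex from *Rptn*. *Krtdap*, a gene of suprabasal keratinocytes, had 466, 413 and 440 CPM against 670, 1048 and 655 CPM (0.85 ± 0.18, FDR 0.0596). *Sbsn*, the suprabasin gene, had 568 ± 83.9 against 838 ± 239 CPM (0.56 ± 0.20, FDR 0.143). *Krtdap* was called without TG replicate 2, with a log2 fold change of 0.61 ± 0.07 and an FDR of 0.0120.

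**Figure D4:**
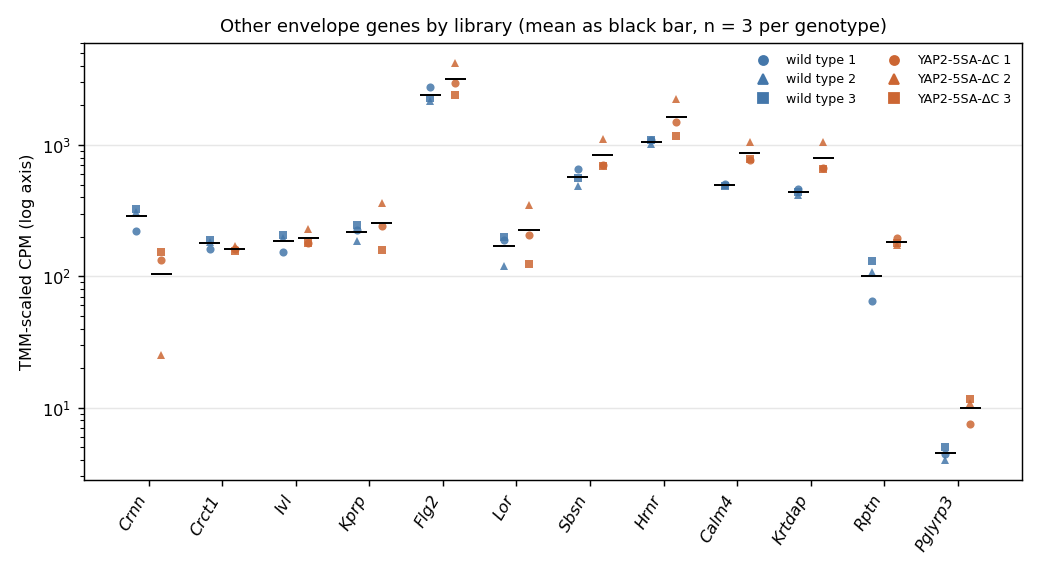
Level of the 12 other envelope genes in each library (TMM-scaled CPM on a log axis, ordered by log2 fold change, black bars for means of 3 libraries). *Crnn*, at the left, has its lowest point in TG replicate 2, and *Calm4*, *Krtdap*, *Rptn* and *Pglyrp3*, at the right, have all TG points above the WT points.

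By RPKM over merged exons, the order of the 48 members shifted. *Krtdap* was first in both genotypes, at 647 ± 39.3 RPKM in WT and 1165 ± 328 RPKM in TG skin (SD, n = 3 each). *Sprr1a* and *Calm4* followed in WT at 635 ± 127 and 542 ± 11.7 RPKM, and neither *Krtdap* nor *Calm4* differed from *Sprr1a* beyond the spread of the latter. In TG skin *Calm4* stood at 949 ± 179 RPKM and *Sprr1a* at 389 ± 149 RPKM. *Sprr1b* moved from rank 25 with 33.5 ± 8.04 RPKM to rank 13 with 125 ± 11.9 RPKM. *Crnn* moved from rank 7 with 153 ± 30.0 RPKM to rank 22 with 55.6 ± 36.8 RPKM. The *Lce3* genes stood among the lower members in both genotypes on this scale, with *Lce3c* highest at 9.28 ± 1.27 RPKM in WT and 21.8 ± 3.77 RPKM in TG skin.

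Along chromosome 3, the members with large differences were not all neighbours. The *Sprr2* genes and *Sprr1b* lie together early in the span, with *Sprr1a* and *Sprr4* next to them and lower in TG skin by their estimates. The *Lce1* genes follow with small values, then the *Lce3* block, and then *Crct1* and *Lce1m* with small values again. *Lce1m* lies beyond the *Lce3* block and apart from the other *Lce1* genes, and its log2 fold change of 0.23 was like theirs.

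**Figure D5:**
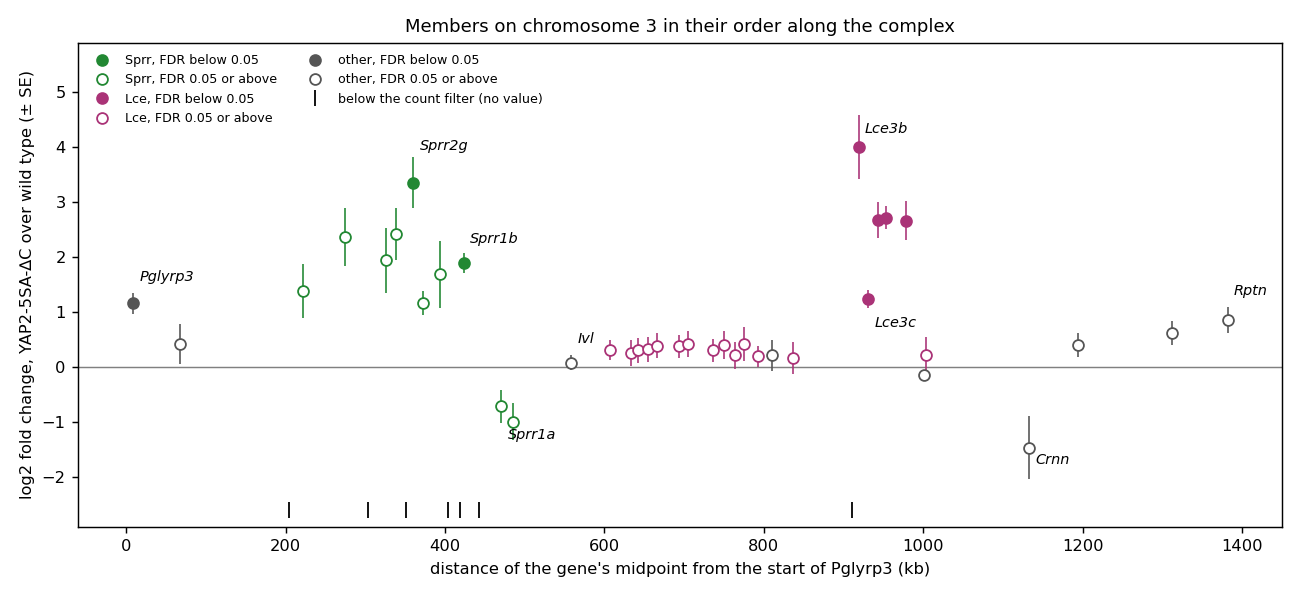
Log2 fold change of TG over WT (± SE from the quasi-likelihood fit on 3 libraries per genotype) for each tested member on chromosome 3, by distance in kb from the start of *Pglyrp3*. Filled points have an FDR below 0.05 and ticks mark the 7 members below the count filter. The *Lce3* block and the *Sprr2* genes stand above the flat *Lce1* stretch between them, and *Crnn* lies lowest.

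The proteins that join, anchor and process the envelope gave no call in the quasi-likelihood test. None of the 17 genes for cross-linkers, scaffold proteins and processing enzymes was called, and their median log2 fold change was 0.24. At an unadjusted p below 0.05, 8 were higher and 2 were lower, where 13.3% and 13% of all tested genes were, so that the lower genes stood near the background share. With the likelihood-ratio test 5 were higher and 1 was lower (5.52% and 4.87% of all tested genes), and with DESeq2 7 and 1 (6.35% and 4.18%). The lowest FDRs belonged to *Dsg1b*, a desmosomal cadherin (log2 fold change 0.43 ± 0.08, FDR 0.0505), *Blmh*, a protease that degrades filaggrin peptides (0.42 ± 0.09, FDR 0.0619), and *Klk7*, a protease of desquamation (0.34 ± 0.08, FDR 0.0640). *Tgm1*, the main epidermal transglutaminase, had 112 ± 7.14 against 109 ± 7.43 CPM (FDR 0.782). *Tgm3*, which also serves the hair follicle, had 99.6 ± 32.3 against 37.9 ± 16.4 CPM (log2 fold change -1.39 ± 0.38, FDR 0.0836).

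Of 19 transcription factors of the late epidermal programme none was called either, with 2 higher in the likelihood-ratio test and 4 in DESeq2 (5.52% and 6.35% of all tested genes). At an unadjusted p below 0.05, 5 were higher and 3 were lower, against 13.3% and 13% of all tested genes, and the lower genes were again near the background share. *Fosl1*, a Fos-family partner of AP-1, had 1.98, 2.09 and 1.24 CPM in WT and 3.06, 5.06 and 4.31 CPM in TG skin (log2 fold change 1.19 ± 0.26, FDR 0.0612). *Pou2f3* had 35.7 ± 4.42 against 55.7 ± 10.2 CPM (FDR 0.0622) and *Cebpa* 116 ± 1.81 against 154 ± 27.6 CPM (FDR 0.0897). *Jun* and *Junb* stood at FDRs of 0.780 and 0.759. The median over the 19 genes was 0.09.

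Of the keratinocyte markers in the biopsy, *Krt14*, *Krt16* and *Krt6b* were called in the quasi-likelihood test, and more were called by other tools. The shares of all tested genes to set beside the counts of higher markers are 1.44% in that test, 5.52% in the likelihood-ratio test, 6.35% in DESeq2 and 13.3% at an unadjusted p below 0.05. The summed level of 6 basal keratinocyte genes was 3318 to 4060 CPM in WT and 5592 to 7220 CPM in TG skin, with *Krt14* called at an FDR of 0.0300. In that list 3 genes were higher in the likelihood-ratio test and 5 in DESeq2. That of 5 suprabasal genes was 5863 to 7619 CPM against 8226 to 14884 CPM, with *Krt2* below the filter and no call (2 higher in the likelihood-ratio test and 1 in DESeq2, 2 at an unadjusted p below 0.05). Its ratio was 1.56-fold, and 1.25-fold without TG replicate 2, which also had the highest *Lce1*, *Lor*, *Kprp* and *Flg2* levels. Among 4 genes of hyperplastic epidermis *Krt16* and *Krt6b* were called, with log2 fold changes of 2.24 ± 0.27 and 2.85 ± 0.48, while *Krt17* had -0.63 ± 0.22 (FDR 0.128). The sum of the 4 genes was 1194 to 1585 CPM in WT and 1222 to 2363 CPM in TG skin, and the genotypes overlapped in it. The likelihood-ratio test and DESeq2 each called 3 of these 4 genes higher and 1, *Krt17*, lower. The part of these lists in the members' differences was not tested.

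Markers of other cells and structures differed from list to list, and the same background shares apply to those that were higher. Of 5 macrophage genes *Mrc1* and *Csf1r* were called higher (3 in the likelihood-ratio test, 4 in DESeq2, and 5 at an unadjusted p below 0.05), and the sum went from 313 to 361 CPM in WT to 439 to 502 CPM in TG skin. The sum of 6 skeletal muscle genes spread from 1330 to 6486 CPM within WT and from 1275 to 3293 CPM in TG skin, and that of 4 adipocyte genes from 259 to 345 and from 255 to 356 CPM. None of these muscle or adipocyte genes was called, and none had an unadjusted p below 0.05 or a call in the likelihood-ratio test or DESeq2. The median log2 fold change was -2.18 over 8 hair shaft genes and -1.39 over 7 inner root sheath and medulla genes, against 0.56 and 0.65 over the tested basal and suprabasal keratinocyte genes. Every gene of both hair lists was below WT in each TG library, as were 18.2% of all tested genes, yet none was called in the quasi-likelihood test or DESeq2 (8 and 6 in the likelihood-ratio test against 4.87% of all tested genes, 8 and 6 at an unadjusted p below 0.05 against 13%). *Krt13* and *Krt76*, which with *Krt4* define oral and oesophageal epithelium, reached at most 0.222 CPM in any library, and *Krt4*, which reached 1 CPM in TG libraries only, had 0.544 ± 0.106 against 2.19 ± 0.552 CPM (FDR 0.0398). *Krt84* of the same list, which is also a hair keratin, had 49.9 ± 21.6 against 10.4 ± 8.89 CPM (FDR 0.106).

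How firmly the calls stood differed between tests and libraries. With the likelihood-ratio test of edgeR, 18 members were higher and 2, *Crnn* and *Sprr4*, were lower, against 5.52% and 4.87% of all tested genes. All 7 tested *Sprr2* genes, *Hrnr*, *Rptn* and *Krtdap* were among those higher. When 1 library was left out at a time, *Lce3e* and *Sprr1b* were called in 3 of 6 fits, the other *Lce3* genes, *Sprr2g* and *Pglyrp3* in 2, and *Calm4* in 1. In the fits that left out replicate 2 or 3 of WT or replicate 3 of TG no gene of the table was called, and the members at an unadjusted p below 0.05 were then 16, 17 and 31 higher (9.55%, 10.8% and 13.2% of all tested genes) and 0, 1 and 3 lower (8.58%, 8.1% and 11.7%). Without WT replicate 1, *Lce3e* and *Sprr1b* were the called members. Over the 6 fits the log2 fold change of *Lce3e* stayed between 2.61 and 2.92 and that of *Sprr1b* between 1.72 and 2.03, with FDRs of up to 0.101 and 0.107.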

How the data were processed

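Whole skin of the dorsal neck of 3 WT and 3 TG female littermates (33 days old) was sequenced. The table the authors deposited holds raw counts for each Ensembl gene. Per the study's methods, paired reads of 75 bases were mapped to GRCm38 with TopHat2 and Bowtie2, and uniquely mapped reads were counted with HTSeq. The submitters' processing notes give TopHat2 2.0.12 and Bowtie2 2.1.0, whereas the methods name another TopHat2 version, and which was used is not known. The annotation release and the strand setting are not given in the sources used here. Libraries are called mRNA libraries in the study's methods, but the kit in the labels is one for total RNA.

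Genes that reached 1 CPM, by library size alone, in 3 or more libraries (15102 of 26579) were tested after TMM scaling. Quasi-likelihood fits and F-tests (glmQLFit, glmQLFTest) were made with edgeR 4.0.16 in R 4.3.3 with genotype as the only term and Benjamini-Hochberg adjustment over all tested genes. The likelihood-ratio test, voom (limma 3.58.1), DESeq2 1.42.0, RLE and upper-quartile factors, other filters, a replicate block and the omission of each library were alternatives. The scripts were tested on simulated data. Total counts of 11225705 to 19505036 per library leave genes near 1 CPM with few counts, and their fold changes are the least precise.

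Symbols, positions and merged exon lengths came from GENCODE M21, in which 558 identifiers of the table are absent. Promoters (250 bases before to 50 after the start) of 41 of 48 members were matched by symbol in RefSeq on GRCm38.p6.

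Members and gene lists were chosen with earlier results of these data known. Named genes were the called members, the tested members that are neither *Sprr* nor *Lce*, the 4 *Sprr* and 4 *Lce* members with the highest mean CPM, and the called or the 3 lowest-p genes of each list. *Sprr2e*, *Sprr2h*, *Sprr2a1*, *Sprr2a2*, *Lce1j*, *Lce6a*, *Tgm1*, *Tgm3*, *Jun*, *Junb*, the untested members and the markers were named after their values were seen. The mice were separate animals, and p-values measure the spread between them.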

Additional observations from a re-analysis of the deposited data

How the results depend on the processing

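With RLE and upper-quartile factors no count in the families described moved by more than 1.5 times. Genes called over the whole table were 288, and 497 without a count filter, 1568 with the likelihood-ratio test and 1590 with DESeq2. Members called higher were 9, and 14, 18 and 17 with these 3 settings, and members called lower were 0, then 2 with the likelihood-ratio test and 1 with DESeq2. *Sprr* members called were 2, and 6, 9 and 7 in the same order, and 1 with voom. *Lce* members called were 5, and 2 with at least 10 counts in every sample, where only 34 members could be tested. The other envelope members called were 2, and 6 with the likelihood-ratio test, 6 with DESeq2 and 1 with voom. With a replicate block no gene was called (0 genes, 0 members higher, 0 *Sprr*, 0 *Lce* and 0 other members), while 2949 genes, 17 members higher and 2 lower had an unadjusted p below 0.05. Replicate numbers were not taken as pairs, since the deviations of same-numbered samples correlated at -0.33, -0.23 and -0.05.

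Leaving out 1 library gave 0 to 841 genes called, 0 to 13 members higher, 0 to 1 lower, 0 to 5 *Sprr*, 0 to 5 *Lce* and 0 to 4 other members. The upper ends came without TG replicate 2, and the fits with no call (2738, 2853 and 3751 genes at an unadjusted p below 0.05) were those without WT replicate 2, WT replicate 3 and TG replicate 3. The cause was not tested. Over these 6 fits the log2 fold change of *Ivl* ran from -0.029 (without WT replicate 1, and -0.025 without TG replicate 2) to 0.17, that of *Lor* from -0.015 to 0.71, of *Kprp* from -0.11 to 0.47, of *Lce1m* from -0.20 to 0.48 and of *Lce1a1* from -0.029 to 0.47. Without TG replicate 2 the sign turned in all 5, none of them called.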

Other observations

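The span of the complex held 8 further genes of the table that are no members, and 4 of them could be tested. None was called in the quasi-likelihood test (1.44% higher and 0.464% lower among all tested genes) or in DESeq2 (6.35% and 4.18%). At an unadjusted p below 0.05 in the quasi-likelihood test 1 was higher and 1 lower, against 13.3% and 13% of all tested genes. In the likelihood-ratio test 1 was lower, against 4.87%. *Prr9*, a proline-rich protein gene between the envelope genes, had 649, 965 and 860 CPM in WT and 391, 66.8 and 454 CPM in TG skin (log2 fold change -1.44 ± 0.61, FDR 0.190). *Gm4202* had 28.4 ± 1.42 against 34.6 ± 4.86 CPM (FDR 0.157) and *2310050C09Rik* 97.5 ± 14.8 against 139 ± 56.0 CPM (FDR 0.272). *Prr9* had its lowest level in TG replicate 2, as did *Crnn*, *Sprr1a* and *Sprr4*, the 3 tested members with their minimum in that library. Of all tested genes 26.8% had their minimum there, against 7.32% of the tested members.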
